A study of Homo sapiens with 12 samples.

Results

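The RNA of 10 genes of non-canonical WNT signalling was described in sublines of HMC-1, a human mast cell line that came from a patient with mast cell leukaemia. They were the ligands WNT5A and WNT5B, the receptors ROR1, ROR2 and RYK, and the Frizzled receptors FZD1, FZD2, FZD5, FZD6 and FZD7. The 10 genes were found by symbol among the 58381 genes of the count and FPKM tables. They were chosen on earlier results of these same libraries, so their levels and differences are given as a description, with no p-value. The groups were 3 libraries each of HMC-1.1, of HMC-1.2 and of HMC-1.3 clones 1 and 2. The labels name no drug treatment, and the cultures of a group were plated as replicates of 1 line or clone. HMC-1.1 cells carry the V560G mutation of the stem cell factor receptor KIT, HMC-1.2 cells carry V560G together with D816V, and the HMC-1.3 clones are HMC-1.2 cells in which CRISPR/Cas9 editing reverted V560G, which leaves D816V. Each HMC-1.3 group is 1 clone, so a difference made by the edit and one that belongs to the clone cannot be told apart within a group.

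WNT proteins are secreted, lipid-modified ligands. In the canonical pathway they bind a Frizzled receptor together with LRP5 or LRP6 and stabilise beta-catenin. WNT5A and its close relative WNT5B mostly act without beta-catenin, through Frizzled receptors with the receptor tyrosine kinase-like proteins ROR1, ROR2 and RYK, and are known for effects on cell polarity, migration and calcium signalling.

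The stretches upstream of ROR2 and WNT5A are shown because these were the members with the widest spread between groups. They are the 250 bases before the start that RefSeq gives for GRCh38.p14, read 5′ to 3′ on the gene's strand, with each CG dinucleotide in capitals. ROR2 has this stretch at chr9:91950229-91950478, on the minus strand. WNT5A has it at chr3:55481399-55481648, also on the minus strand, ahead of 1 of its transcript starts and inside the span of the gene. A second WNT5A stretch, at chr3:55487307-55487556, is not shown because it overlaps an untranslated region of WNT5A. It holds 14 CG dinucleotides at 52.8% G and C, a number that 44.8% of promoters reach.
ROR2: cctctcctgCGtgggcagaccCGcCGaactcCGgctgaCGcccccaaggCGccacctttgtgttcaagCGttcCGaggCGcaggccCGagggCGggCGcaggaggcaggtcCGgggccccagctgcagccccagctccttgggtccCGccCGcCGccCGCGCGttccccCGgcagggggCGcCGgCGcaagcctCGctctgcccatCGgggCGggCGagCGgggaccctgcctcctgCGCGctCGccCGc
WNT5A: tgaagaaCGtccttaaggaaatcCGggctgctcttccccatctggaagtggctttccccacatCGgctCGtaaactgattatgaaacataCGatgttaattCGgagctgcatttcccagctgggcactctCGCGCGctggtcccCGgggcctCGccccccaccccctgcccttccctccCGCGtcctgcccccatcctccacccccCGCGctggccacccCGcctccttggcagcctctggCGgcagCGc
The ROR2 stretch holds 32 CG dinucleotides at 78% G and C, and 9.52% of the 35116 promoters of this length hold as many. The WNT5A stretch shown holds 18 at 64.4% G and C, a number that 36.8% of promoters reach, and the median is 11. Methylation was not measured in these libraries.

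Totals ran from 29225900 to 43181402 expected counts per library, and levels are given as CPM, counts scaled to a common library size with TMM factors. The mast cell label was checked against 11 marker genes. KIT lay between 346 and 469 FPKM and the histidine decarboxylase gene HDC between 814 and 1037 FPKM, while MS4A2, the beta chain of the IgE receptor, and CMA1, chymase, stayed under 1 FPKM in every library. Other markers differed between the groups. TPSAB1 averaged 592 FPKM in HMC-1.2 and 29.4 to 44.2 FPKM in the other groups. TPSB2 averaged 96.6 FPKM in HMC-1.2 and at most 40.7 FPKM in the other groups. CPA3 went the other way, with 3.31 FPKM in HMC-1.2 and 7.52 to 10.9 FPKM elsewhere. FCER1A averaged 1.09 FPKM in HMC-1.2 and in clone 2, 0.143 FPKM in HMC-1.1 and 0.137 FPKM in clone 1. FPKM is scaled for transcript length and is used here wherever 2 genes are compared. Of the marker lists of other cell types, the epithelial list stood out in 1 library. Its summed level reached 14.6 FPKM in HMC-1.3 clone 2, against at most 0.86 FPKM in the other groups, and KRT8 (6.69 FPKM) and KRT18 (7.85 FPKM) made up most of it while EPCAM and CDH1 stayed under 1 FPKM. HMC-1.3 clone 2 replicate 3 held 40 genes with at least 20 counts that had at most 3 in every other library, and each of the other libraries held 0 or 1 such gene. WNT5B was among these 40, with 46 counts, beside GPRC5A (238 counts), MYOF (175 counts), EGFR (59 counts) and the WNT inhibitor gene DKK1 (64 counts). Whether RNA of other cells is present in this library was not tested. Where leaving it out changed the call of a named gene against HMC-1.2 or between the clones, the value without it is given.

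ROR2, the receptor through which WNT5A is best known to act without beta-catenin, was nearly absent from HMC-1.2 and present in the other 3 groups. HMC-1.2 libraries held 15, 6 and 12 expected counts. HMC-1.1 libraries held 616, 577 and 634, and those of HMC-1.3 clone 1 held 621, 613 and 572. In HMC-1.3 clone 2 the counts were 1054, 1120 and 1167. No HMC-1.2 library reached any library of another group, the clone 2 libraries lay above all others, and HMC-1.1 and clone 1 overlapped. In bulk RNA of this kind, fewer cells with the transcript and less transcript per cell cannot be told apart.

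On the CPM scale ROR2 averaged 0.343 ± 0.126 in HMC-1.2, while HMC-1.1 averaged 16.3 ± 0.361, clone 1 averaged 16.6 ± 0.481 and clone 2 averaged 28.8 ± 1.91 (SD, n = 3 each). The fitted log2 fold change against HMC-1.2 was 5.57 (SE 0.13) for clone 1, 6.36 (SE 0.12) for clone 2 and 5.54 (SE 0.13) for HMC-1.1. These 3 differences share the same HMC-1.2 libraries. Clone 2 lay 0.82 (SE 0.07) above HMC-1.1 on the log2 scale, clone 1 lay 0.80 (SE 0.07) below clone 2, and clone 1 and HMC-1.1 differed by 0.03 (SE 0.07). Leaving out the unusual clone 2 library or any other library, or changing the count model, kept the difference of clone 1 from HMC-1.2 between 5.30 and 5.75 and that of clone 2 between 6.10 and 6.55. The gene lies at chr9:91563091-91950228 (GRCh38, minus strand) and its canonical transcript has 9 exons.

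The level of WNT5A ran the other way, at a much lower level. HMC-1.2 libraries held 83, 58 and 73 expected counts of the ligand. HMC-1.1 libraries held 7, 19 and 18, clone 1 libraries 20, 10 and 16, and clone 2 libraries 16, 17 and 28. Every HMC-1.2 library lay above every library of the other groups, which overlapped each other. The HMC-1.2 mean was 2.25 ± 0.307 CPM, and the means of HMC-1.1, clone 1 and clone 2 were 0.393 ± 0.181, 0.424 ± 0.145 and 0.517 ± 0.114 CPM (SD, n = 3 each). Fitted against HMC-1.2, the log2 fold change of WNT5A was -2.40 (SE 0.32) for clone 1, -2.10 (SE 0.30) for clone 2 and -2.51 (SE 0.32) for HMC-1.1. WNT5A passed the filter on low counts with 10 libraries, 7 of them outside HMC-1.2.

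The order of the groups for WNT5A depended on the scale. The deposited FPKM values were 0.62, 0.33 and 0.42 in HMC-1.2 and 0.27, 0.08 and 0.45 in clone 2, and so overlapped. HMC-1.1 stood at 0.03, 0.3 and 0.08 FPKM and clone 1 at 0.09, 0.06 and 0.08 FPKM, both below HMC-1.2. The transcript length that links a count to its FPKM value can be computed per library. For WNT5A it ran from 1.44 to 6.25 kb, a 4.34-fold range, with the shortest values in clone 2 replicates 1 and 3 and HMC-1.1 replicate 2, although FPKM values this low are coarse at 2 decimals. For ROR2 it ran from 2.65 to 3.73 kb, a 1.41-fold range that is small beside the gap between the groups, and for the Frizzled genes with enough counts it moved by at most 1.02-fold. Whether WNT5A isoforms differ between libraries was not tested. With FPKM in the fit, as log2(FPKM + 0.1), WNT5A differed from HMC-1.2 by -1.63 for clone 1, -0.71 for clone 2 and -1.37 for HMC-1.1.

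**Figure D1:**
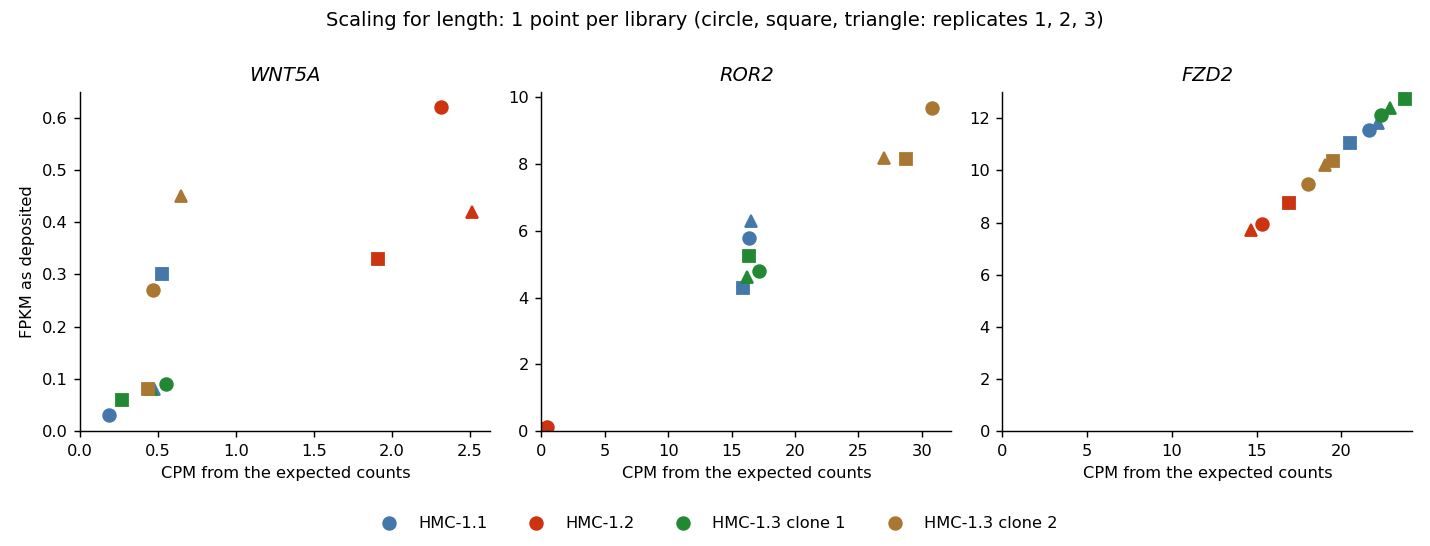
Each point is 1 library, with CPM computed from the expected counts on the x axis and the deposited FPKM on the y axis, both linear from 0, for WNT5A, ROR2 and FZD2. FZD2 falls on a line, while the WNT5A libraries of clone 2, at 0.436 to 0.647 CPM, spread from 0.08 to 0.45 FPKM.

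WNT5A lies at chr3:55465715-55490539 (GRCh38, minus strand), with 5 exons in its canonical transcript and 7 annotated transcripts. Its antisense gene WNT5A-AS1 was at 0 counts in every library.

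WNT5B was at 0 to 2 expected counts in 11 libraries and at 46 in HMC-1.3 clone 2 replicate 3. The other clone 2 libraries held 0 and 2 counts, those of HMC-1.1 held 1, 1 and 0, those of HMC-1.2 held 2, 0 and 0, and those of clone 1 held 2, 0 and 2. The clone 2 mean of 0.371 CPM (SD 0.600) therefore rests on 1 library, and no group difference can be read from it. WNT5B (chr12:1529891-1647212, plus strand) overlaps FBXL14 on the opposite strand, which held up to 593 counts. The library kit keeps the strand, but the strand setting of the counting is not given in the sources used here, so reads of these genes may not be fully separated.

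ROR1, the other ROR receptor, was close to 0 throughout. HMC-1.1 libraries held 2, 0 and 3 counts, HMC-1.2 libraries 2, 2 and 1, clone 1 libraries 2 each, and clone 2 libraries 0, 1 and 7. The 7 counts came from clone 2 replicate 3, the library with the WNT5B counts. All groups overlapped, and neither WNT5B nor ROR1 passed the filter on low counts. ROR1 spans chr1:63774017-64181498 on the plus strand.

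RYK, an atypical WNT receptor whose kinase domain is inactive, was the most abundant member in every group. HMC-1.2 held 62.7 ± 0.201 CPM, HMC-1.1 held 72.2 ± 0.380 CPM, clone 1 held 71.0 ± 1.49 CPM and clone 2 held 70.6 ± 2.76 CPM (SD, n = 3 each). HMC-1.2 libraries lay between 62.5 and 62.8 CPM, below all other libraries, of which the lowest was at 67.8 CPM. The gap was small in size. Log2 fold changes against HMC-1.2 were 0.18 (SE 0.04) for clone 1, 0.17 (SE 0.04) for clone 2 and 0.20 (SE 0.04) for HMC-1.1, all under the 1.5-fold limit used for calls. Per length, RYK stood at 25.7 ± 0.681 FPKM in HMC-1.2 and at 30.2 to 31.1 FPKM in the means of the other groups. It lies at chr3:134065303-134250859 on the minus strand, with 15 exons.

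**Figure D2:**
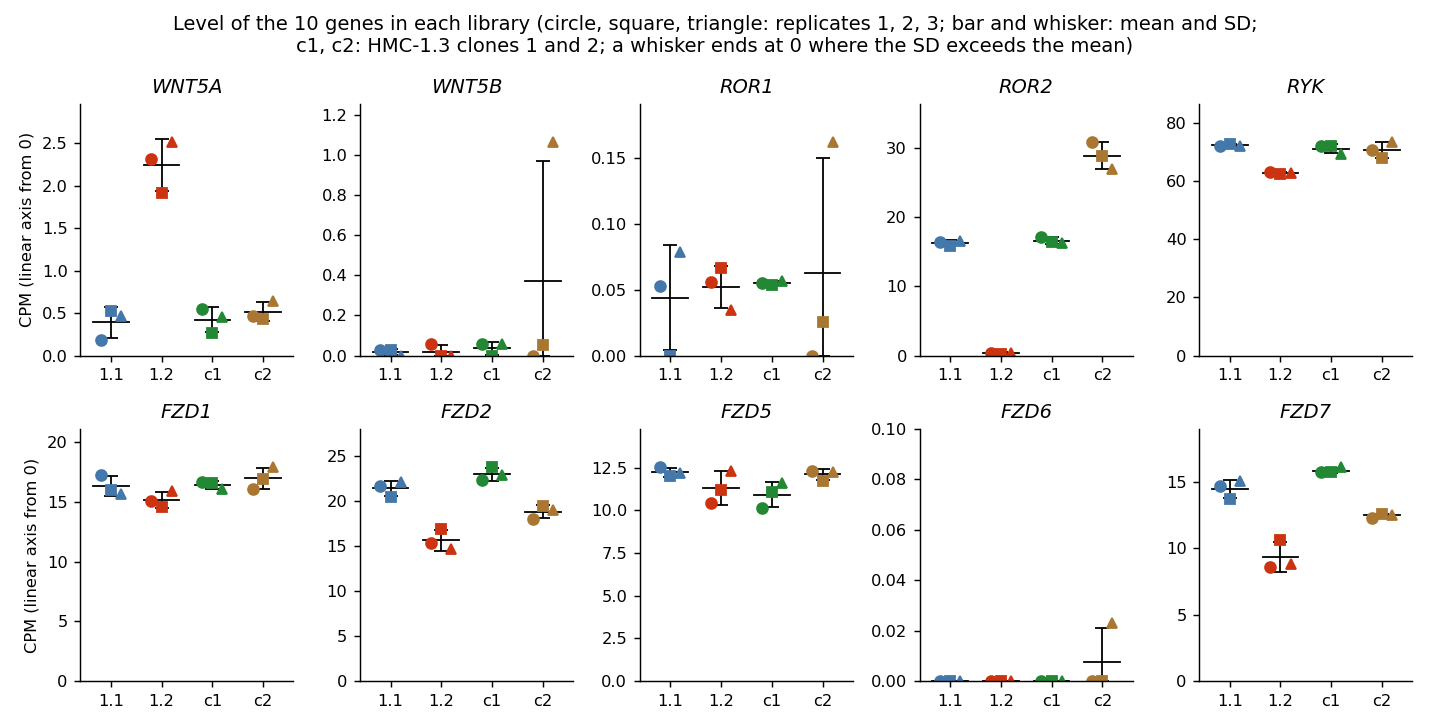
Each panel gives the level of 1 gene in CPM on a linear axis from 0, with 1 point per library, the group mean as a bar and its SD as a whisker. ROR2 is near 0 in the 3 HMC-1.2 libraries and highest in clone 2, WNT5A is highest in HMC-1.2, and the WNT5B, ROR1 and FZD6 maxima all lie in clone 2 replicate 3.

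Of the Frizzled receptors, FZD2 and FZD7 were lower in HMC-1.2 than in the other groups, and FZD1 and FZD5 stayed close to level. For FZD2 the HMC-1.2 libraries held 15.3, 16.9 and 14.7 CPM and the clone 2 libraries 18.0, 19.5 and 19.0 CPM. Those of HMC-1.1 held 21.6, 20.5 and 22.1 CPM and those of clone 1 held 22.3, 23.7 and 22.9 CPM. No 2 groups overlapped for FZD2, and the order from low to high was HMC-1.2, clone 2, HMC-1.1, clone 1. The log2 fold change against HMC-1.2 was 0.55 (SE 0.06) in clone 1, 0.45 (SE 0.06) in HMC-1.1 and 0.27 (SE 0.06) in clone 2.

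FZD7 showed the same order with slightly wider gaps. Its libraries held 8.57, 10.6 and 8.79 CPM in HMC-1.2, 12.3, 12.6 and 12.5 CPM in clone 2, 14.7, 13.7 and 15.0 CPM in HMC-1.1, and 15.8, 15.7 and 16.1 CPM in clone 1. Again no 2 groups overlapped. FZD7 differed from HMC-1.2 by 0.77 (SE 0.08) in clone 1, 0.64 (SE 0.08) in HMC-1.1 and 0.42 (SE 0.08) in clone 2 on the log2 scale. Between the clones FZD7 lay 0.35 (SE 0.07) higher in clone 1, and FZD2 lay 0.29 (SE 0.06) higher in clone 1, so for both genes clone 2 stood between clone 1 and HMC-1.2. For ROR2 the clones stood in the opposite order.

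FZD1 means for HMC-1.1, HMC-1.2, clone 1 and clone 2 were 16.3 ± 0.831, 15.2 ± 0.658, 16.4 ± 0.329 and 17.0 ± 0.896 CPM (SD, n = 3 each). Its HMC-1.2 libraries, at 14.6 to 15.9 CPM, overlapped those of HMC-1.1 and lay just under both clones, whose lowest libraries were at 16.0 and 16.1 CPM. FZD5 was at 12.2 ± 0.259, 11.3 ± 0.971, 10.9 ± 0.742 and 12.1 ± 0.323 CPM in the same order of groups. HMC-1.2 overlapped every other group for FZD5, and its largest fitted difference in any comparison was -0.16 (SE 0.07), for clone 1 against HMC-1.1. FZD6 was at 0 counts in 11 libraries and at 1 in clone 2 replicate 3. At these totals a count of 0 allows up to 3 counts, or 0.0695 to 0.103 CPM, which covers counting error only.

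FZD1 (chr7:91264433-91271326), FZD2 (chr17:44557484-44561262) and FZD7 (chr2:202033855-202038441) are genes of 1 exon on the plus strand, so their count does not depend on splicing. FZD5 (chr2:207762598-207769906, minus strand) has 2 exons. FZD6 lies at chr8:103298433-103332866 on the plus strand.

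Set against each other per length, the receptors kept much the same order apart from ROR2. In HMC-1.2 the means were 25.7 FPKM for RYK, 8.14 for FZD2, 2.52 for FZD7, 2.21 for FZD1 and 1.71 for FZD5, with FZD7 and FZD1 overlapping in their libraries. ROR2 came last of the detected receptors there, at 0.0967 FPKM, below the ligand WNT5A at 0.457 FPKM. In clone 1 ROR2 stood at 4.88 ± 0.320 FPKM, after RYK and FZD2 (12.4 FPKM) and above FZD7 (4.45 ± 0.0764 FPKM), whose libraries it did not overlap. The same place held in HMC-1.1, at 5.46 ± 1.04 FPKM. In clone 2 ROR2 reached 8.67 ± 0.878 FPKM and overlapped FZD2 at 10.0 ± 0.463 FPKM (SD, n = 3 each).

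A gene counted as called at an adjusted p under 0.05 (edgeR, Benjamini-Hochberg over the 15944 genes tested) and a fold over 1.5. Of the 10 members 7 were tested. In clone 1 against HMC-1.2, 2 passed this rule as higher and 1 as lower, where 11.8% of all genes tested were called higher and 8.18% lower. For clone 2 against HMC-1.2 it was 1 higher and 1 lower, beside 7.98% and 8.51% of all genes. HMC-1.1 against HMC-1.2 gave 2 higher and 1 lower, beside 10.1% and 7.52%. Between clone 1 and HMC-1.1 it was 0 of 7, beside 0.671% higher and 0.339% lower. Clone 2 against HMC-1.1 gave 1 higher and 0 lower, beside 3.04% and 5.15%, and clone 1 against clone 2 gave 0 higher and 1 lower, beside 8.38% and 4.25%. Since the members were chosen on results of these same libraries, nothing is read from their counts against these shares. The members behind the counts were ROR2, WNT5A and, for clone 1 and HMC-1.1 against HMC-1.2, FZD7. The ROR2 and WNT5A calls held in all 20 refits on counts. FZD7 kept its call for clone 1 in all 20 and for HMC-1.1 in 18, losing it under glmTreat and without HMC-1.2 replicate 1, where its log2 fold change was 0.57. FZD2 was past the limit for clone 1 in 1 of 20, without HMC-1.2 replicate 2, at 0.61.

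**Figure D3:**
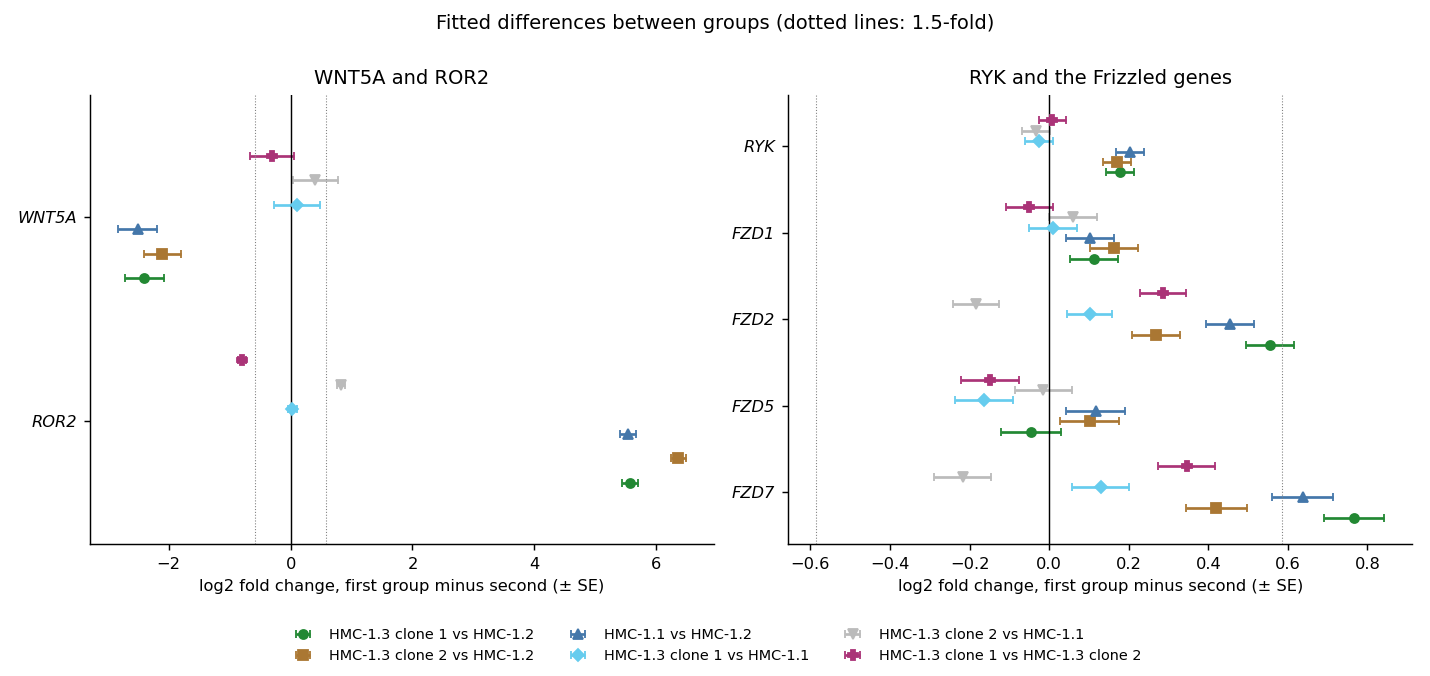
The log2 fold change of each tested member is plotted for the 6 comparisons with its SE, WNT5A and ROR2 on the left and RYK and the Frizzled genes on a narrower axis on the right. ROR2 lies near 5.5 to 6.4 and WNT5A near -2.1 to -2.5 against HMC-1.2, while RYK and the Frizzled genes stay between -0.22 and 0.77.

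The median over the 7 tested members was 0.18, 0.17 and 0.20 on the log2 scale for clone 1, clone 2 and HMC-1.1 against HMC-1.2, where the median over all genes tested was 0.01, -9.12e-05 and 0.01. Groups did not overlap for 6, 6 and 5 of the 7 tested members in these comparisons, where they did not overlap for 64.2%, 56% and 59.9% of all genes tested. In clone 1 against HMC-1.1, clone 2 against HMC-1.1 and clone 1 against clone 2 the counts were 4, 3 and 4 of 7, beside 33.3%, 47.3% and 56.8% of all genes. As HMC-1.2 enters all 3 comparisons with it, likeness between those is in part built in.

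The genes around ROR2 moved little. Within 500 kb on either side of the gene 7 other genes were tested, and 0 of them passed the rule in any of the 6 comparisons. Of all genes tested, 11.8% were called higher than in HMC-1.2 and 8.18% lower for clone 1. The shares were 7.98% and 8.51% for clone 2 and 10.1% and 7.52% for HMC-1.1. With 7 genes, nothing is read from the count against these shares. The log2 fold changes of the 7 neighbours against HMC-1.2 lay between -0.56 and 0.53, with medians of 0.03 for clone 1, -0.05 for clone 2 and -0.01 for HMC-1.1. Next to ROR2 on either side were SPTLC1, a subunit of serine palmitoyltransferase, at -0.21, -0.18 and -0.24 in the same order, and NFIL3, a bZIP transcription factor, at 0.16, -0.09 and -0.28. Around WNT5A no gene was tested within this distance. Of the 8 genes tested around FZD7, edgeR called 2 as higher than in HMC-1.2 for clone 1, 2 for HMC-1.1 and 0 for clone 2. These counts stand beside the same shares of all genes, and nothing is read from them.

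**Figure D4:**
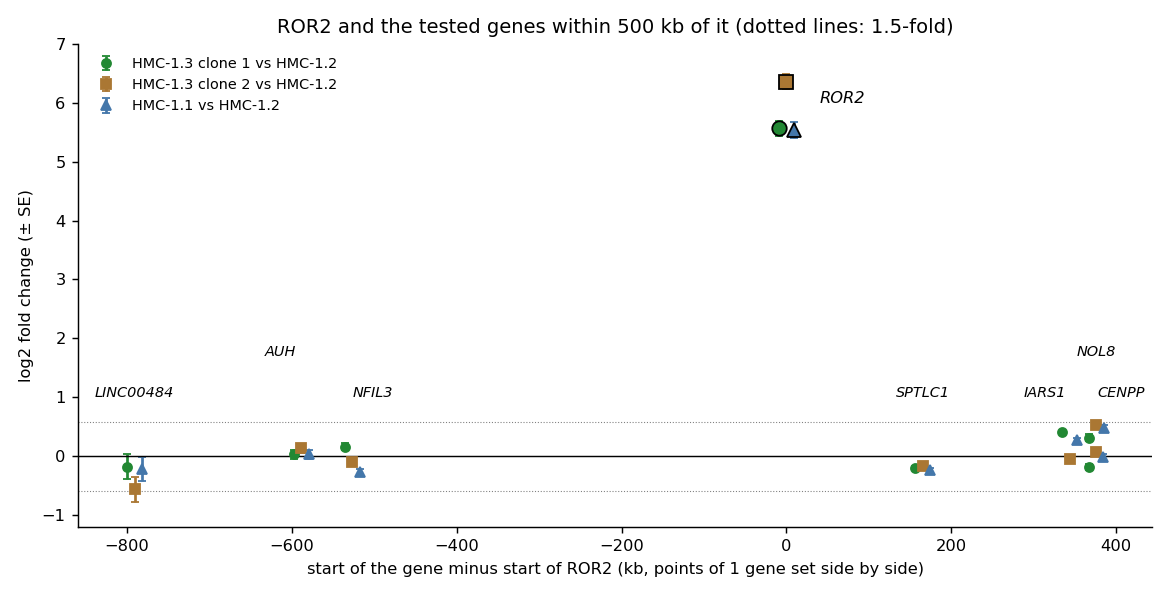
The log2 fold change against HMC-1.2 with its SE is plotted against the distance in kb between the start of each gene and the start of ROR2, which is outlined at 0. The 7 neighbours lie between the dotted lines of 1.5-fold change, and ROR2 lies above 5.5.

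The genes whose level followed ROR2 most closely over the 12 libraries were NOVA1, a splicing factor (Pearson r = 0.998 on log2 CPM), DENND2D, DNM3, a dynamin, FUCA2, a fucosidase, and EGLN1, an oxygen-sensing prolyl hydroxylase (r = 0.995, 0.995, 0.994 and 0.994). DENND2D, for example, stood at 21.4 CPM in HMC-1.2 and at 144, 142 and 157 CPM for HMC-1.1, clone 1 and clone 2. The genes most like WNT5A were MDGA1 (r = 0.964), ITGB1BP2, CD46, a complement regulator, GALNS, a lysosomal sulfatase, and the receptor NOTCH4 (r = 0.958, 0.958, 0.957 and 0.956). MDGA1 was at 3.46 CPM in HMC-1.2 and at 0.687, 0.726 and 0.998 CPM for HMC-1.1, clone 1 and clone 2. These correlations describe 12 libraries in 4 groups that were compared with 13115 and 13116 genes, and most of each rests on the step between HMC-1.2 and the rest. With ranks in place of values, or FPKM in place of CPM, 0 of the 5 genes stayed on either list.

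The rest of the WNT pathway was read from lists of 109 genes, of which 73 were tested. These lists were drawn up with earlier results of these same libraries known. Most of the genes named from them were then picked for large fold changes. Here and in the sections below, their adjusted p-values are therefore a description and no independent test. Against HMC-1.2, clone 1 had 18 calls (9 higher, 9 lower), clone 2 had 21 (7 higher, 14 lower) and HMC-1.1 had 15 (6 higher, 9 lower). Of all genes tested, 11.8% were higher and 8.18% lower for clone 1, 7.98% and 8.51% for clone 2, and 10.1% and 7.52% for HMC-1.1. The counts of the single lists that follow are to be read beside these same shares. FZD8, SFRP1, VANGL2 and WNT9A passed the filter on low counts only through HMC-1.2, and PTK7 only with its HMC-1.1 and HMC-1.2 libraries together. For these 5 genes the filter therefore favoured lower values elsewhere, and their calls are given as a description. Where called, these genes add to the lower counts against HMC-1.2 here and in the single lists. No excess over the shares is therefore read from the lower counts. A single listed gene of the 73, CAMK2B, was called between clone 1 and HMC-1.1, as higher, beside 0.671% higher and 0.339% lower of all genes tested. Clone 2 against HMC-1.1 gave 12 calls (5 higher, 7 lower), beside 3.04% and 5.15%. The comparison of clone 1 with clone 2 gave 15 (10 higher, 5 lower), beside 8.38% and 4.25%. The median over the 73 genes was -0.01, 0.04 and 0.02 on the log2 scale in the 3 comparisons with HMC-1.2, close to that of all genes.

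Of the 17 other ligands 5 were tested, and 2 were called higher in clone 1, 1 higher and 1 lower in clone 2 and 1 higher in HMC-1.1. WNT11, a further non-canonical ligand, was higher than in HMC-1.2 in clone 1 (log2 fold change 2.23, SE 0.16, adjusted p = 1.91e-09), in HMC-1.1 (2.20, SE 0.16, adjusted p = 2.83e-09) and in clone 2 (3.96, SE 0.14, adjusted p = 2.34e-13). HMC-1.2 libraries held 45, 22 and 27 counts, against 144 to 191 for HMC-1.1, 164 to 177 for clone 1 and 512 to 685 for clone 2. At 9.56 FPKM in clone 2 it stood far above WNT5A. The groups other than HMC-1.1 and clone 1 did not overlap. WNT10B averaged 3.71 to 4.96 FPKM in the groups. It stood above WNT5A in each of them, and above WNT11 in all but clone 2. PORCN, the enzyme that attaches the lipid to WNT proteins, was at 16.8 to 23.7 FPKM in the group means, while WLS, which carries them to the cell surface, had at most 9 counts, again in clone 2 replicate 3.

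Of 9 other Frizzled genes and co-receptors 7 were tested, with 1 called higher and 2 lower in each comparison with HMC-1.2. FZD4 was higher than in HMC-1.2 in both clones and in HMC-1.1. FZD4 rose by 0.88 (SE 0.23) for clone 1, 1.03 (SE 0.22) for clone 2 and 0.90 (SE 0.22) for HMC-1.1 on the log2 scale (adjusted p = 0.00285, 0.000995 and 0.0027). FZD8, which the filter kept only through HMC-1.2, had 52, 32 and 28 counts there, and its log2 fold changes were -2.27 (SE 0.41), -2.35 (SE 0.41) and -1.89 (SE 0.39) in the same order. FZD3, at 3.43 to 5.58 FPKM in the group means, and the co-receptors LRP5 and LRP6 were called in 0 of these 3 comparisons by edgeR, although LRP5 was called lower in clone 2 without its replicate 3 (-0.60, SE 0.09, adjusted p = 3.14e-05). PTK7, a pseudokinase co-receptor, had 13 counts or fewer in every library, with a log2 fold change of -1.67 (SE 0.62) in clone 2, and its call was kept in 12 of the 20 alternatives that tested it and lost without clone 2 replicate 3 (adjusted p = 0.0582).

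Secreted inhibitors were mostly at or near 0, and 2 of 10 were tested. SFRP1, which binds WNT proteins, had 83, 71 and 67 counts in HMC-1.2, at most 3 in any HMC-1.1 library and at most 1 in any clone 1 library, so folds against it depend on the prior count. In clone 2 it had 2, 2 and 75 counts, the 75 in replicate 3, and with this library left out its log2 fold change against HMC-1.2 went from -1.84 to -5.32. DKK3 was higher than in HMC-1.2 in clone 1 (1.80, SE 0.30, adjusted p = 7.05e-05), HMC-1.1 (1.65, SE 0.31, adjusted p = 0.000223) and clone 2 (1.00, SE 0.32, adjusted p = 0.0161), the last with an adjusted p of 0.0766 when replicate 3 of clone 2 was left out. LGR4, a receptor for R-spondins, rose by 2.46 (SE 0.10) for clone 1, 1.85 (SE 0.10) for clone 2 and 2.51 (SE 0.10) for HMC-1.1 (adjusted p = 1.12e-12, 9.25e-11 and 8.58e-13). RNF43, listed with LGR4 and the R-spondins, had 4 to 6 counts in HMC-1.2, 12 to 21 in each clone and 6 to 12 in HMC-1.1.

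In the planar polarity and Dishevelled list, 4 of 20 tested genes were called in each comparison with HMC-1.2: ANKRD6 as higher, and CELSR1, VANGL2 and MAPK9 as lower. CELSR1, a polarity cadherin, had 131, 81 and 95 counts in HMC-1.2, against 6 to 11 for HMC-1.1, 6 to 10 for clone 1 and 23 to 33 for clone 2 (log2 fold changes -3.89, -3.78 and -2.10, adjusted p = 2.2e-09, 2.35e-09 and 5.59e-07). VANGL2, a core polarity membrane protein, had 18 to 29 counts in HMC-1.2 and at most 3 elsewhere, and was tested only because of its HMC-1.2 libraries. MAPK9, the kinase JNK2, differed by -0.96, -0.87 and -0.95 in clone 1, clone 2 and HMC-1.1 (SE 0.05 each, adjusted p = 3.03e-11, 1.1e-10 and 4.07e-11). DVL1, DVL2 and DVL3, which relay the signal from Frizzled receptors, differed from HMC-1.2 by -0.21 to 0.26 on the log2 scale and were not called. In the calcium list PLCB1 was higher in all 3 comparisons (1.26, 0.76 and 1.17, SE 0.10 each, adjusted p = 1.3e-08, 1.11e-05 and 4.56e-08).

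On the beta-catenin side, CTNNB1 itself differed from HMC-1.2 by at most 0.10 on the log2 scale. Of 11 tested target genes, 5 were called for clone 1 (2 higher, 3 lower), 5 for clone 2 (1 higher, 4 lower) and 3 for HMC-1.1 (0 higher, 3 lower). AXIN2, a feedback inhibitor, had 31, 22 and 36 counts in HMC-1.2 and 3 to 16 elsewhere, and differed by -2.65 (SE 0.45), -1.71 (SE 0.40) and -2.06 (SE 0.42) in clone 1, clone 2 and HMC-1.1 (adjusted p = 7.58e-05, 0.00196 and 0.000508). Between the clones AXIN2 was called only without clone 2 replicate 3 (-1.31, adjusted p = 0.0459, against -0.95, adjusted p = 0.14, with it). CCND1, cyclin D1, differed by -3.03 (SE 0.09), -1.07 (SE 0.08) and -2.93 (SE 0.09) (adjusted p = 3.06e-14, 3.66e-09 and 3.84e-14). TNFRSF19 was also lower in all 3 comparisons, while NOTUM was called higher in clone 1 (0.68, SE 0.25, adjusted p = 0.0256) and lower in clone 2 (-0.87, SE 0.28, adjusted p = 0.0147). The NOTUM calls were lost in 8 and 3 of 22 alternatives, clone 2 replicate 3 left out being 1 of the latter (adjusted p = 0.0547). APC2 and CAMK2B were called lower in clone 2 and not in clone 1 or HMC-1.1, with log2 fold changes of -1.38 and -1.09 against HMC-1.2 (adjusted p = 1.5e-06 and 0.000114), and so was RSPO4 (-0.87, adjusted p = 0.00042).

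**Figure D5:**
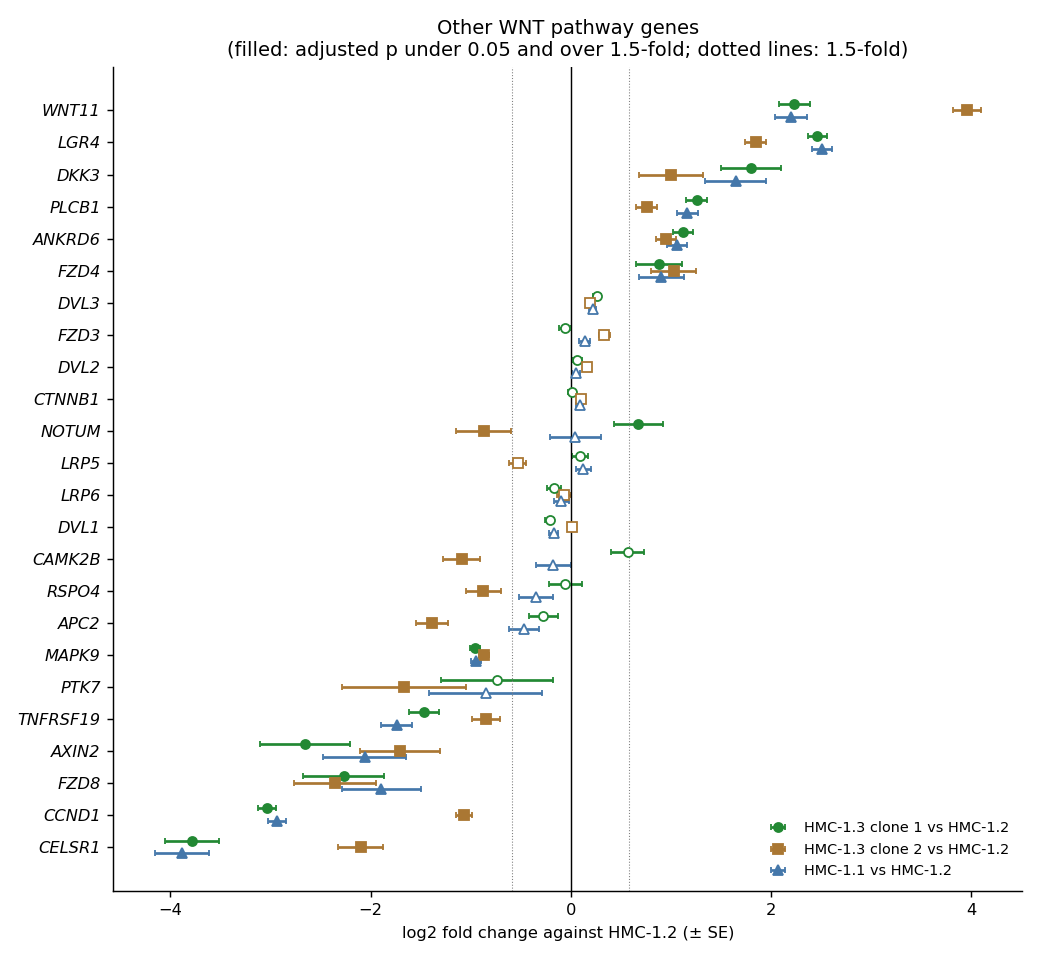
The log2 fold change against HMC-1.2 with its SE is plotted for the named pathway genes other than SFRP1, with filled symbols where a gene was called. WNT11 and LGR4 lie at the high end in all 3 comparisons. CELSR1 and CCND1 are lowest for clone 1 and HMC-1.1, and FZD8 and CELSR1 are lowest for clone 2. Clone 2 lies apart from the others for WNT11, CELSR1 and CCND1.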

How the data were processed

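The data are polyadenylated RNA sequencing of 12 HMC-1 cultures, in 4 groups of 3 by the sample labels. According to the submitters' processing notes and the paper, the authors used cutadapt 2.10 for trimming and STAR 2.5.3 for alignment to hg38, marked duplicates with Picard and estimated expected counts per gene with RSEM 1.3.0. The expected counts deposited by the authors are not normalized. Of the 120 values of the members 2 were not whole, and of all values 7.39%. The FPKM values deposited by the authors take account of gene length and of depth.

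Counts were rounded and tested with edgeR 4.0.16 (R 4.3.3): the quasi-likelihood test, TMM factors (0.974 to 1.02), the 15944 genes kept by filterByExpr, and 1 model of the 4 groups without covariates. Benjamini-Hochberg adjustment was applied per comparison. The common biological coefficient of variation was 0.0442. The cultures of a group hold cells of 1 line or clone, so p-values measure the spread between cultures. Counts of replicates differed beyond sampling noise (chi-square per degree of freedom 2.83 to 7.67), so replicates were not copies of one another. This says nothing of the quality of a library. All 12 were kept, clone 2 replicate 3 included. Levels are CPM or FPKM as mean and SD. Log2 CPM used a prior count of 2.

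Pathway genes named are those called in at least 1 comparison with HMC-1.2 and with a mean of at least 1 CPM in the higher group, up to the 20 with the largest log2 fold change (16 qualified), with FZD3, FZD4, LRP5, LRP6, PTK7, the DVL genes, CTNNB1 and AXIN2 whatever their values. Also named are the 5 genes most like WNT5A and ROR2 among genes with at least 1 CPM. VANGL2, RNF43, WNT10B, PORCN, WLS, the neighbours of ROR2 and the genes of clone 2 replicate 3 were named after their values were seen. So were the markers TPSAB1, TPSB2, CPA3 and FCER1A. The members and lists were chosen with earlier results of these data known. Positions are from Gencode 44, which holds 99.0% of the 58381 identifiers, and promoters from RefSeq, with an entry for 7 of the 10 members. Protein sequences were not used here.

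The fits were tested on simulated data with known changes. The alternatives were DESeq2 1.42.0, its size factors in edgeR, no filter, a filter of 0.5 CPM in any library, a fit of only those groups being compared, a replicate block, a covariate for libraries marked resent, glmTreat against 1.5-fold, limma 3.58.1 with FPKM (pseudocounts 1 and 0.1, log2), and leaving out each library. Replicate numbers shared no origin in the labels. Deviations from the group means correlated at -0.0362 to 0.0952 between same-numbered libraries of different groups, and at -0.106 to 0.0724 between the others. Figures were drawn with matplotlib 3.10.9.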

Additional observations from a re-analysis of the deposited data

Results flagged for a closer look

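Of the 73 listed pathway genes tested, 15 passed the call rule between the HMC-1.3 clones (10 higher and 5 lower in clone 1). Of all genes tested, 8.38% were called higher and 4.25% lower in clone 1. Of the 15 genes, 13 also passed the rule against HMC-1.2 in at least 1 clone. The comparison of clone 1 with clone 2 in edgeR (quasi-likelihood, Benjamini-Hochberg adjusted) is the test of the difference between the effects of the clones against HMC-1.2. Values are clone 1 minus clone 2 on the log2 scale. Of the ligands, WNT11 differed by -1.73 (adjusted p = 1.11e-09), WNT3 by 1.11 (adjusted p = 0.00548) and WNT9A by 2.33 (adjusted p = 0.00825), the last with 0, 4 and 1 counts in clone 2 and 6 to 10 in clone 1. Of the extracellular regulators, NOTUM differed by 1.55 (adjusted p = 9.53e-05), DKK3 by 0.80 (adjusted p = 0.0187), RSPO4 by 0.82 (adjusted p = 0.000668) and the R-spondin receptor LGR4 by 0.62 (adjusted p = 6.5e-06). SFRP1 differed by -4.89 (adjusted p = 0.00675), and by -1.41 (adjusted p = 0.304) without clone 2 replicate 3. CELSR1 differed by -1.69 (adjusted p = 0.000196), CAMK2B by 1.66 (adjusted p = 7.79e-07) and APC2 by 1.11 (adjusted p = 2.16e-05). Of the target genes, CCND1 differed by -1.97 (adjusted p = 3.7e-11) and TNFRSF19 by -0.62 (adjusted p = 0.00301). LRP5 (0.62, adjusted p = 5.94e-06) and NKD2 (0.67, adjusted p = 0.031) passed it between the clones and not against HMC-1.2. LRP5 also passed it for clone 2 against HMC-1.1 (-0.66, adjusted p = 5.5e-06) and, without clone 2 replicate 3, for clone 2 against HMC-1.2 (-0.60). NKD2 lost the call without clone 2 replicate 3 (adjusted p = 0.0714). A difference between 2 clones cannot be told apart from 1 between any other clones of the same edit.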

How the results depend on the processing

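Over the 42 member values (7 tested genes in 6 comparisons), all 798 refits on counts moved by less than the spread between replicates. Calls of FZD7 (HMC-1.1 against HMC-1.2) and FZD2 (clone 1 against HMC-1.2), close to the 1.5-fold limit, changed in 2 and 1 of 20 refits on counts. FPKM in place of counts ended the WNT5A call of clone 2 at both pseudocounts and those of clone 1 and HMC-1.1 at a pseudocount of 1 FPKM. Of 84 refits on FPKM 25 moved by more and 0 called values changed sign; these refits add a pseudocount and use the deposited length scaling. Counts of called pathway genes against HMC-1.2 fell with limma on log2(FPKM + 1) from 18 to 7 (clone 1), 21 to 5 (clone 2) and 15 to 8 (HMC-1.1), and with glmTreat from 21 to 12 in clone 2. For clone 1 against HMC-1.1 the count of 1 became 0 with glmTreat and both FPKM fits and 1 to 2 with a library left out, 2 without clone 1 replicate 1. For clone 2 against HMC-1.1 the 12 became 3 with glmTreat, 2 with limma on log2(FPKM + 1) and 8 to 13 with a library left out, 8 without clone 2 replicate 3. Between the clones the 15 became 6 with glmTreat, 3 with limma at a pseudocount of 1 FPKM and 9 at 0.1 FPKM. With the replicate block the counts were 18, 21, 15, 1, 12 and 15, as without it. Same-numbered libraries correlated at -0.0362 to 0.0952 over 18 pairs, and 6 of 12 libraries correlated best with their own number. Of the 5 genes most like WNT5A 0 stayed with Spearman's rho, 0 with FPKM and 2 among genes of at least 10 CPM, and of those most like ROR2 0, 0 and 4. The cause of these changes was not tested. Low counts limit WNT5A, and WNT5B, ROR1 and FZD6 more so.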
